A study of Mus musculus with 7 samples.

Results

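Adrenomedullin and the calcitonin gene-related peptides (CGRP) act through 1 shared receptor, and the genes of these peptides and of the receptor's parts were followed in whole mouse uterus at estrus and at diestrus. The genes were taken by their symbols: Adm, Adm2, Calca and Calcb for the peptides, Calcrl for the receptor and Ramp1, Ramp2 and Ramp3 for its partners, 8 of the 31274 rows of the gene table. All 8 symbols were present. RNA sequencing had been done on uteri of CD-1 mice, an outbred laboratory stock, at the age of 2 months; the animals were intact and untreated, and no allele or agent is named for either stage. The estrus group held 3 libraries and the diestrus group 4, and since nothing in the labels ties a library to its own animal, the p-values cover only library-to-library spread, which could be technical. Estradiol peaks shortly before estrus in the rodent cycle, and progesterone prevails at diestrus.

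Calcrl encodes a G protein-coupled receptor that reaches the cell surface only with a receptor activity-modifying protein, or Ramp. With Ramp1 it binds CGRP, and with Ramp2 or Ramp3 it binds adrenomedullin, so the Ramp present sets which peptide a cell answers to. Adrenomedullin and CGRP widen blood vessels, adrenomedullin is needed for vascular and lymphatic development and for normal implantation in mice, and CGRP is best known as a peptide of sensory nerves.

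Values were FPKM, that is, fragments divided by the length of the transcript and by the library's mapped total, and they carry no read count, so depth is known only in relative terms. Judged by the steps between low values, libraries were 0.92 to 1.36 times as deep as estrus replicate 1. Genes of the layers of the uterus were present at both stages: the epithelial gene Epcam averaged 310.2 ± 41.3 FPKM at estrus and 131 ± 29.6 FPKM at diestrus, the stromal gene Hoxa11 27.3 ± 2.06 and 114 ± 34.2, and the smooth muscle gene Myh11 437 ± 229 and 606 ± 299 (SD, n = 3 estrus and n = 4 diestrus). Stroma markers did not all go the way of Hoxa11: Col1a2 averaged 922 ± 142 FPKM at estrus and 565 ± 200 at diestrus, with overlapping groups. Diestrus replicate 1 stood apart from its group. On the first principal component of the tested genes the estrus libraries lay at 47.0 to 59.9, diestrus replicate 1 at -11.3 and the other diestrus libraries at -61.9 to -36.3. The 10 most abundant genes took 33.7% to 38.2% of the summed FPKM in estrus libraries, against 34.2% in diestrus replicate 1 and 12.1% to 18.7% in the other diestrus libraries. Fold changes of Ramp1, Ramp2, Ramp3, Calcrl and Adm, and results of some gene lists, are therefore also given without that replicate. It was singled out from these same data as the diestrus library nearest to estrus. Leaving it out can by itself widen a difference and lower its p, so such values add no support.

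The limma test of estrus minus diestrus ran on log2(FPKM + 1) for the 13920 genes that reached 1 FPKM in 3 or more libraries, with Benjamini-Hochberg adjustment over all of them and a threshold of 0.05. Adm, Calcrl, Ramp1, Ramp2 and Ramp3 passed the filter, each above 1 FPKM in all 7 libraries, while Adm2, Calca and Calcb did not. Ramp1 and Adm fell at estrus and Ramp3 rose, 3 of 5 tested members, while 31.1% of all tested genes changed (17.2% higher and 14.0% lower at estrus). Calcrl and Ramp2 did not pass the test. Among the 5 tested members, the values of the estrus and diestrus libraries did not overlap for Ramp1, Adm and Ramp3. The same was so for 40.6% of all tested genes (18.7% lower and 21.9% higher at estrus).

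**Figure D1:**
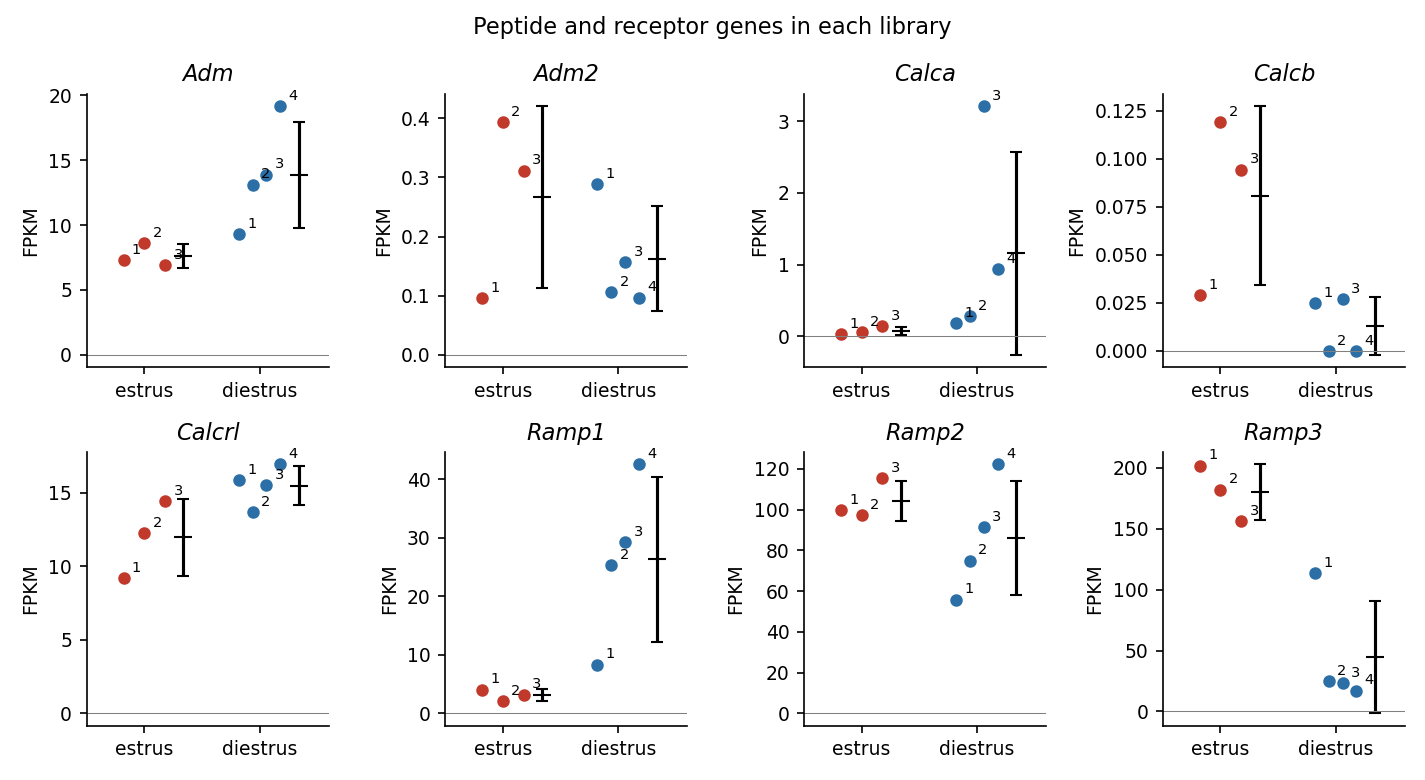
FPKM of the 8 genes in each library (y axes linear; points are libraries with their replicate number; black bars are the mean and SD of the group, n = 3 estrus and n = 4 diestrus). Ramp3 lies at 156 to 202 FPKM in the estrus libraries and at 17.05 to 114 in the diestrus libraries, where replicate 1 is the highest; Ramp1 lies at 2.10 to 4.05 and at 8.31 to 42.6.

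Ramp1, the partner that turns Calcrl into the CGRP receptor (GRCm38 chromosome 1, 91179822 to 91225196, + strand, protein-coding), was at 4.05, 2.10 and 3.20 FPKM in estrus replicates 1 to 3, against 8.31, 25.3, 29.2 and 42.6 FPKM in diestrus replicates 1 to 4. Every estrus library was below every diestrus library, and diestrus replicate 1 was the lowest of its group. The mean of 3.12 ± 0.976 FPKM at estrus was 8.45-fold lower than the mean of 26.4 ± 14.1 FPKM at diestrus (SD, n = 3 and n = 4). Its log2 fold change was -2.56 (SE 0.49, limma adjusted p = 0.00867), which is understated by the added 1 at this level: with 0.1 added it was -2.87. Ramp1 passed in each of the 17 alternative fits, and without diestrus replicate 1 its log2 fold change was -3.01 (limma adjusted p = 0.00155).

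Ramp3, a partner that makes an adrenomedullin receptor (chromosome 11, 6658506 to 6677478, + strand), was at 202, 182 and 156 FPKM in estrus replicates 1 to 3, against 114, 25.0, 23.0 and 17.05 FPKM in diestrus replicates 1 to 4. The groups did not overlap, but diestrus replicate 1 lay nearer to the estrus libraries than to its own group. The means were 180.1 ± 22.7 FPKM at estrus and 44.7 ± 46.2 FPKM at diestrus (SD, n = 3 and n = 4), which on the log2 scale differed by 2.42 (SE 0.58, limma adjusted p = 0.020). Without diestrus replicate 1 the diestrus mean was 21.7 ± 4.13 FPKM and the log2 fold change was 3.01 (limma adjusted p = 0.000895). The call was lost without estrus replicate 1 (adjusted p = 0.0636) and without estrus replicate 2 (adjusted p = 0.0753), at log2 fold changes of 2.33 and 2.41. At estrus the mean of Ramp3 stood above that of 97.5% of tested genes, and at diestrus above 87.1%.

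Ramp2, the other adrenomedullin partner, without which mouse embryos die of vascular defects (chromosome 11, 101246334 to 101248250, + strand), was at 99.9, 97.4 and 116 FPKM in estrus replicates 1 to 3, against 55.8, 75.0, 91.3 and 122 FPKM in diestrus replicates 1 to 4. The estrus values lay inside the diestrus range. The log2 fold change was 0.33 (SE 0.25, 95% interval -0.25 to 0.90, limma adjusted p = 0.336), so the interval holds values on both sides of 0. With quantile normalization it was 0.093, and without diestrus replicate 1 it was 0.14 (limma adjusted p = 0.591). In GENCODE, though not in RefSeq, the span of Ramp2 overlaps that of Vps25 on the same strand, and Vps25 stood at 74.4 to 84.5 FPKM in estrus libraries and 58.6 to 75.3 in diestrus libraries; whether reads of Vps25 entered the Ramp2 row cannot be seen from the table.

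Calcrl, the receptor itself (chromosome 2, 84330626 to 84425405, - strand), was at 9.20, 12.3 and 14.4 FPKM in estrus replicates 1 to 3, against 15.9, 13.7, 15.5 and 16.9 FPKM in diestrus replicates 1 to 4. Estrus replicate 3 lay above diestrus replicate 2, and the other estrus libraries lay below every diestrus library. The log2 fold change was -0.36 (SE 0.16, 95% interval -0.74 to 0.011, limma adjusted p = 0.120). Without diestrus replicate 1 it was -0.35 (limma adjusted p = 0.163). Of the 17 alternative fits, the call was made with library weights (-0.34, adjusted p = 0.0161) and in no other.

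Adm, which encodes adrenomedullin (chromosome 7, 110627657 to 110629820, + strand), was at 7.29, 8.64 and 6.90 FPKM in estrus replicates 1 to 3, against 9.30, 13.1, 13.9 and 19.2 FPKM in diestrus replicates 1 to 4. All estrus libraries were below all diestrus libraries, with the smallest gap to diestrus replicate 1. The means were 7.61 ± 0.91 FPKM at estrus and 13.9 ± 4.07 FPKM at diestrus (SD, n = 3 and n = 4), which on the log2 scale differed by -0.75 (SE 0.22, limma adjusted p = 0.0372). This call was near the threshold. Without diestrus replicate 1 the log2 fold change was -0.92 (adjusted p = 0.00904), but without diestrus replicates 2, 3 or 4 the adjusted p was 0.0687, 0.0773 and 0.0686, and without estrus replicates 1, 2 or 3 it was 0.0983, 0.0880 and 0.0909. GENCODE places the antisense gene Gm28863 across nearly the whole of Adm, and reads from the opposite strand cannot be told apart unless counting used strand, which is not given in the sources used here.

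The promoters of the 3 genes that passed the test are shown because Ramp1 and Adm moved one way and Ramp3 the other; each is the 250 bases before the start that the RefSeq promoter table uses, 5′ to 3′ on the gene's strand, in GRCm38.p6. For Ramp1 and Adm that start is the first base of the gene span given above, while for Ramp3 it is base 6658533, inside the span, so the last bases of the Ramp3 window lie within the gene. Capitals mark matches on either strand to GGTCA, the core letters that pair up in an estrogen response element, and to GCGTG, 1 of the core sequences bound by hypoxia-inducible factors (HIF).
Ramp1 promoter, chr1:91179572-91179821, + strand: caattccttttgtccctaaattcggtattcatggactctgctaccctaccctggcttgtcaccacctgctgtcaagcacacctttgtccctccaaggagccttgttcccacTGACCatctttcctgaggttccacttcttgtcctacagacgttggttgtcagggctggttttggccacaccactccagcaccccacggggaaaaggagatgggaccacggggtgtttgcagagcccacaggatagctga
Ramp3 promoter, chr11:6658283-6658532, + strand: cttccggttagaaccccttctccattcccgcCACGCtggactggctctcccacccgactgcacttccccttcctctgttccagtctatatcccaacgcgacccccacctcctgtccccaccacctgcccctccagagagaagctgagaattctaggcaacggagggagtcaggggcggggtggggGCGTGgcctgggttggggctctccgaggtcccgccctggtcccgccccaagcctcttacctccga
Adm promoter, chr7:110627407-110627656, + strand: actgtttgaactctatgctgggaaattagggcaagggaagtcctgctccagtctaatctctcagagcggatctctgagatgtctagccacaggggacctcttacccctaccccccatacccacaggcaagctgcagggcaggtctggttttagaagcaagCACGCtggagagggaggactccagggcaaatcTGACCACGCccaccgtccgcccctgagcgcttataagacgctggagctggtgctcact

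In these windows Ramp1 held 1 match to GGTCA, Adm held 1 match to GGTCA and 2 to GCGTG, and Ramp3 held 2 matches to GCGTG. In Adm the GGTCA match ends on the base where a GCGTG match begins, at base -54 from the start, so the capitals run together. Of 32851 RefSeq windows of this length, 35.2% held GGTCA and 28.2% held GCGTG. None of the 3 windows held ACGTG, the other HIF core (16.6% of windows), the full estrogen response element, GGTCA and TGACC 3 bases apart (0.0639%), a progesterone response element, searched as GNACA and TGTNC 3 bases apart (0.387%), or the cyclic AMP response element TGACGTCA (1.55%). G and C made up 65.2% of the Ramp3 window, 56.8% of that of Adm and 54.0% of that of Ramp1, against a median of 52.4% over all windows. Matches of this kind describe the sequence and are not binding sites.

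The makeup of the Ramps differed between the stages. Of the summed Ramp FPKM, a quantity scaled for transcript length, Ramp3 made up 66.0%, 64.7% and 56.8% in estrus replicates 1 to 3, against 63.9%, 19.9%, 16.0% and 9.38% in diestrus replicates 1 to 4. Ramp2 made up 32.7%, 34.6% and 42.0% in the estrus libraries, against 31.4%, 59.9%, 63.6% and 67.2% in the diestrus libraries. The Ramp3 share of diestrus replicate 1 lay within the range of the estrus libraries, and its Ramp2 share just below that range. Ramp1 made up 1.33%, 0.747% and 1.16% in the estrus libraries, against 4.67%, 20.2%, 20.4% and 23.4% in the diestrus libraries, so for Ramp1 the groups did not overlap. The summed Ramp level was 19.1 to 33.2 times that of Calcrl in estrus libraries and 9.16 to 11.2 times in diestrus libraries.

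**Figure D2:**
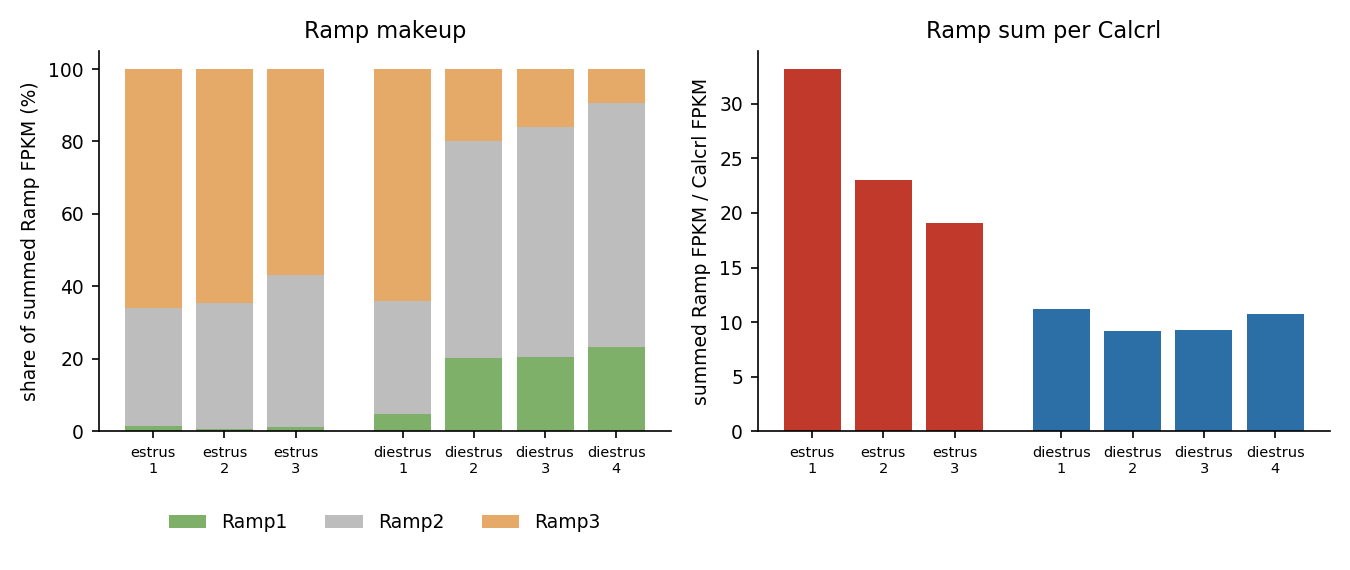
Left, share of the summed FPKM of Ramp1, Ramp2 and Ramp3 in each library (%); right, the summed Ramp FPKM divided by the FPKM of Calcrl in each library. Ramp3 holds 56.8% to 66.0% of the sum in the estrus libraries and 63.9% in diestrus replicate 1, but 9.38% to 19.9% in diestrus replicates 2 to 4.

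Ratios of FPKM within a library do not depend on how the libraries were scaled, and 8 of them were compared by an exact two-sided permutation test over libraries, whose 35 arrangements can give no p below 0.0286. The log2 ratio of Ramp1 to Ramp2 was -5.11 ± 0.46 at estrus and -1.87 ± 0.59 at diestrus (SD, n = 3 and n = 4), a difference of -3.24, with every estrus library lower (exact p = 0.0286, adjusted over the 8 ratios 0.0914). The log2 ratio of Ramp1 to Ramp3 was -5.90 ± 0.47 at estrus and -0.52 ± 2.24 at diestrus, a difference of -5.37 (exact p = 0.0571, adjusted 0.0914). In linear terms Ramp1 stood at 0.0201, 0.0116 and 0.0204 of the level of Ramp3 in estrus replicates 1 to 3, against 0.0731, 1.01, 1.27 and 2.50 in diestrus replicates 1 to 4. The ratio of Ramp3 to Ramp2 overlapped between the groups, since diestrus replicate 1 had a log2 ratio of 1.03 and the estrus libraries 0.44 to 1.01 (exact p = 0.143, adjusted 0.163).

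Ramp2 relative to Calcrl had log2 ratios of 3.44, 2.99 and 3.00 in the estrus libraries, against 1.82, 2.46, 2.56 and 2.85 in the diestrus libraries, a difference of 0.72 with no overlap (exact p = 0.0571, adjusted 0.0914). Adm relative to Calcrl was lower by 0.43 at estrus with overlapping groups (exact p = 0.229, adjusted 0.229). None of the 8 ratios passed after adjustment, which at the smallest p of this design would need 5 or more of them at that p.

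**Figure D3:**
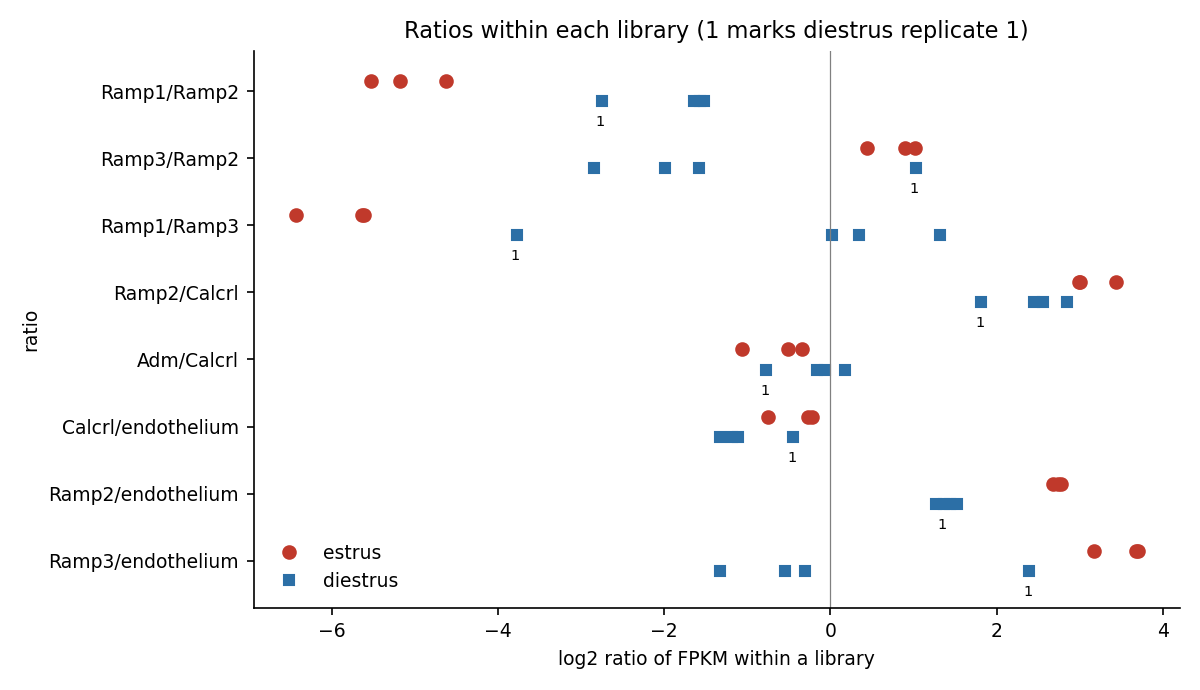
Log2 ratio of FPKM within each library for 8 ratios; circles are the 3 estrus libraries, squares the 4 diestrus libraries, and the digit 1 marks diestrus replicate 1; endothelium stands for the mean log2 FPKM of 17 blood endothelium markers. Ramp1/Ramp2, Ramp1/Ramp3, Ramp2/Calcrl, Ramp2/endothelium and Ramp3/endothelium separate the groups, with diestrus replicate 1 on the diestrus side. Ramp3/Ramp2 places that replicate just above the highest estrus library.

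The peptide genes other than Adm were near the bottom of the table. Adm2, which encodes intermedin, a relative of adrenomedullin (chromosome 15, 89322720 to 89324731), was at 0.0956, 0.394 and 0.312 FPKM in estrus replicates 1 to 3, against 0.289, 0.106, 0.157 and 0.0966 FPKM in diestrus replicates 1 to 4, with overlapping groups. Calca, whose transcripts are spliced to encode either calcitonin or alpha-CGRP and share 1 row here (chromosome 7, 114625981 to 114636910), was at 0.0277, 0.0538 and 0.135 FPKM in the estrus libraries, against 0.180, 0.281, 3.22 and 0.941 FPKM in the diestrus libraries. Every diestrus library was above every estrus library, but the diestrus values spread widely, with replicate 3 the highest. Calcb, the beta-CGRP gene, which lies 79644 bases from Calca, was at 0.0289, 0.119 and 0.0943 FPKM in the estrus libraries, against 0.0250, 0, 0.0270 and 0 FPKM in the diestrus libraries. For Calcb every estrus library was above every diestrus library, the opposite direction to Calca, by a narrow margin. How often groups fail to overlap among genes at such levels was not counted. These 3 genes were below the filter and are given as values; at such levels a few fragments set the value, and absence cannot be read from a listed 0. All rows above 0 were also tested. Log2 fold changes were 0.093 for Calcb (limma adjusted p = 0.0767), -0.81 for Calca (0.225) and 0.12 for Adm2 (0.401). These are understated by the added 1 at this level.

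Nerve and Schwann cell markers were also low. Of 10 such markers, 2 were tested, and 1 of them passed, beside 31.1% of all tested genes (14.0% lower): Stmn2, a protein of growing axons, fell at estrus (log2 -1.17, limma adjusted p = 0.0263). The summed level of the list was 4.78 to 5.89 FPKM in estrus libraries and 7.65 to 15 FPKM in diestrus libraries, and Snap25, a neuronal synapse protein, was listed at 0 in all 3 estrus libraries and in diestrus replicate 4, and at up to 0.0168 FPKM in the others. The Stmn2 call was lost when any library other than diestrus replicates 1 and 3 was left out (highest adjusted p = 0.102). The part of these markers in the Calca values was not tested.

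Across the 8 genes, the order of the mean FPKM at estrus was Ramp3, Ramp2, Calcrl, Adm, Ramp1, Adm2, Calcb and Calca. Neighbours down to Ramp1 did not overlap in their ranges over the 3 libraries, nor did Ramp1 and Adm2, while the ranges of Adm2, Calcb and Calca overlapped. At diestrus the order was Ramp2, Ramp3, Ramp1, Calcrl, Adm, Calca, Adm2 and Calcb, and the ranges of each of the first 5 genes overlapped with that of its neighbour. Without diestrus replicate 1 the order of Ramp3 and Ramp1 turned, at means of 21.7 ± 4.13 FPKM for Ramp3 and 32.4 ± 9.04 FPKM for Ramp1 (SD, n = 3). Adm and Calca did not overlap there, with Adm at 9.30 FPKM or more and Calca at 3.22 FPKM or less. FPKM is scaled for length, so levels of different genes can be set side by side, within the limits of the unstated transcript models.

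Peptide maturation and breakdown genes were followed as a list, chosen like the other lists with earlier results of these data known. Of 14 genes, 12 were tested, 4 rose and 2 fell at estrus, against 31.1% of all tested genes changed in either direction, and the median log2 fold change was 0.33 against 0.048 for all tested genes. Furin, a convertase that cuts precursors at basic sites, was at 76.4, 80.3 and 67.8 FPKM in estrus replicates 1 to 3, against 40.1, 39.3, 37.4 and 34.6 FPKM in diestrus replicates 1 to 4 (log2 0.96, limma adjusted p = 0.00198). Pam, the enzyme that adds the terminal amide that adrenomedullin and CGRP need for activity, was at 180.2, 249 and 185 FPKM in the estrus libraries, against 128, 144, 82.6 and 89.6 FPKM in the diestrus libraries (log2 0.90, adjusted p = 0.0248). Pcsk7, another convertase, and Ide, insulin-degrading enzyme, rose by 0.68 and 0.47 on the log2 scale.

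Cpe, the carboxypeptidase that trims cut peptides, fell at estrus, at 38.2, 36.6 and 51.9 FPKM against 124, 353, 125 and 193 FPKM in diestrus replicates 1 to 4 (log2 -2.08, limma adjusted p = 0.00664). Mme, or neprilysin, a membrane peptidase that breaks down adrenomedullin and CGRP, was at 18.4, 7.46 and 10.998 FPKM in the estrus libraries, against 90.7, 25.0, 41.3 and 24.4 FPKM in the diestrus libraries (log2 -1.67, adjusted p = 0.0354). Furin and Cpe passed when any library was left out. Without estrus replicate 2, 1 gene of the list rose and 1 fell, and the adjusted p was 0.0515 for Pcsk7, 0.108 for Pam, 0.115 for Ide and 0.134 for Mme. Pam was also above 0.05 when diestrus replicate 3 (0.0530) or 4 (0.0643) or estrus replicate 1 (0.0512) was left out, Ide without diestrus replicate 4 (0.0662) or estrus replicate 3 (0.0600), and Mme without diestrus replicate 3 (0.0723) or estrus replicate 3 (0.0796). With quantile normalization Pam and Ide did not pass (adjusted p = 0.117 and 0.0928).

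Among receptors and ligands related to this family, 7 of 13 were tested. Of these, 1 rose and 3 fell, beside 17.2% higher and 14.0% lower among all tested genes. Among those that fell, Gpr182 and Vipr2 passed the filter only through the diestrus libraries. Their direction was thus set by the filter, and neither the count of falls nor their p-values are a result about the list. The median log2 fold change was -0.34 against 0.048. Without diestrus replicate 1 that median was 0.006, with 1 gene higher and 2 lower. Ackr3, an atypical receptor that takes up the chemokine Cxcl12 and adrenomedullin, was at 61.8, 59.6 and 42.7 FPKM in estrus replicates 1 to 3, against 34.8, 22.9, 28.8 and 26.4 FPKM in diestrus replicates 1 to 4 (log2 0.93, limma adjusted p = 0.0104). Gpr182, an endothelial scavenger receptor once taken for an adrenomedullin receptor, was at 0.530, 0.457 and 0.531 FPKM in the estrus libraries, against 1.33, 2.51, 1.87 and 3.40 FPKM in the diestrus libraries (log2 -1.08, adjusted p = 0.0111). It passed the filter through the diestrus libraries alone, so it could only be tested because it was high there. The same holds for Vipr2, a receptor of vasoactive intestinal peptide, at 0.177, 0.259 and 0.123 FPKM in the estrus libraries, against 0.882, 4.12, 19.4 and 11.6 FPKM in the diestrus libraries (log2 -2.57, adjusted p = 0.0338).

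Pth1r, the parathyroid hormone receptor, had a log2 fold change of -0.73 (limma adjusted p = 0.0417). Crcp, a small protein that helps couple the CGRP receptor to its G protein, had a log2 fold change of 0.13 (adjusted p = 0.619). Iapp, the amylin gene, was listed at 0 in every library, and Calcr, the calcitonin receptor and the other main partner of the Ramps, was at no more than 0.0147 FPKM. Without estrus replicate 2 none of this list passed in limma: Ackr3 was at an adjusted p of 0.0564, Gpr182 at 0.0550, Vipr2 at 0.102 and Pth1r at 0.157. Vipr2 was also above 0.05 without estrus replicate 1 (0.0873) or 3 (0.0764) and not tested without diestrus replicates 2, 3 or 4, and Pth1r without diestrus replicates 1, 2 and 3 (0.0569, 0.0862 and 0.0565) or estrus replicate 1 (0.116).

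Calcrl acts through the stimulatory G protein Gs and cyclic AMP, and of 29 genes of this route 28 were tested, 6 rose and 7 fell, beside 17.2% higher and 14.0% lower among all tested genes, with a median log2 fold change of -0.048 against 0.048. Gnas, the gene of the Gs alpha subunit, had a log2 fold change of 0.076 (limma adjusted p = 0.710). Adenylyl cyclases, which make cyclic AMP, moved in both directions: Adcy1 rose to 4.86 ± 0.33 FPKM at estrus, against 1.37 ± 0.91 at diestrus (log2 1.37, adjusted p = 0.00992), and Adcy3 fell to 2.88 ± 0.42 FPKM at estrus, against 6.77 ± 0.38 at diestrus (log2 -1.005, adjusted p = 0.00250; SD, n = 3 and n = 4 for each). Arrb2, a beta-arrestin that ends receptor signalling and drives uptake, was at 8.17, 7.86 and 9.21 FPKM in the estrus libraries, against 12.5, 20.7, 19.4 and 21.5 FPKM in the diestrus libraries (log2 -1.03, adjusted p = 0.00851). These 3 genes passed when any library was left out. The list was otherwise sensitive to single libraries: without estrus replicate 2, 2 genes rose and 2 fell.

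**Figure D4:**
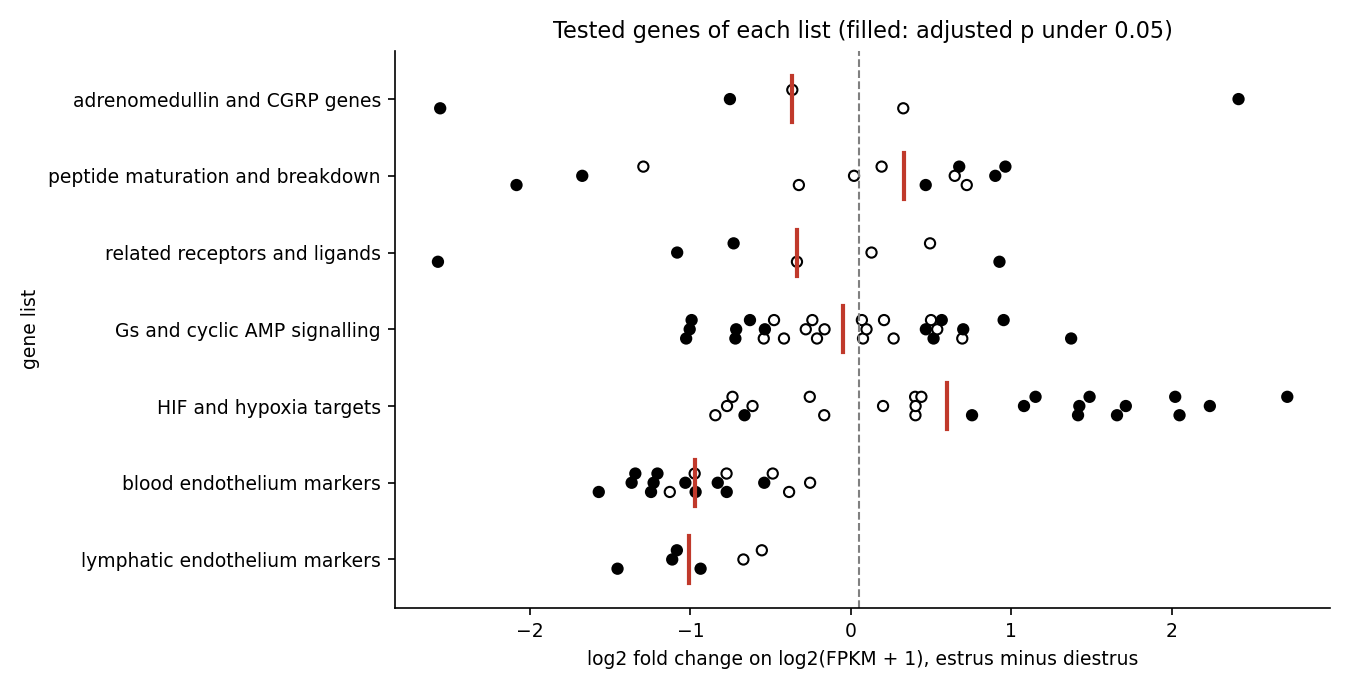
Log2 fold change on the log2(FPKM + 1) scale, estrus minus diestrus, of each tested gene in 7 lists; filled points have a limma adjusted p under 0.05, red bars are list medians and the dashed line is the median of all tested genes (0.048). Blood endothelium markers lie below 0 with a median of -0.97, HIF targets have a median of 0.60, and the 5 tested adrenomedullin and CGRP genes reach from -2.56 to 2.42.

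Adm is a known target of HIF, and the study also made libraries of Hif2a binding, which were not analysed here. Of 24 other HIF and hypoxia targets, all tested, 12 rose and 1 fell (all tested genes: 17.2% and 14.0%), with a median log2 fold change of 0.60 against 0.048, while Adm fell by 0.75. Egln3, a prolyl hydroxylase that HIF induces, was at 27.3, 52.0 and 33.9 FPKM in estrus replicates 1 to 3, against 4.48, 5.40, 4.502 and 4.36 FPKM in diestrus replicates 1 to 4 (log2 2.72, limma adjusted p = 0.000872). The carbonic anhydrase Car9 rose by 2.05 and the stress gene Ddit4 by 2.02 (adjusted p = 0.00208 and 0.00151), and P4ha2, a collagen prolyl hydroxylase, fell by 0.66 (adjusted p = 0.0282). Vegfa, a vascular growth factor and HIF target, had a log2 fold change of -0.17 (adjusted p = 0.629). Without estrus replicate 2, 8 genes of the list rose and none fell, with P4ha2 at an adjusted p of 0.112 (0.0654 without diestrus replicate 3 and 0.0743 without estrus replicate 3), and without diestrus replicate 1, 13 rose and 2 fell.

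Calcrl and Ramp2 are known to be abundant in endothelium, and markers of blood endothelium were lower at estrus. Of 17 markers, all tested, none rose and 11 fell, all 17 had negative log2 fold changes, and the median was -0.97. Among all tested genes 17.2% rose and 14.0% fell, with a median of 0.048. Their summed level was 331, 300.0 and 361 FPKM in estrus replicates 1 to 3, against 464, 646.5, 715 and 914 FPKM in diestrus replicates 1 to 4, and in whole tissue fewer cells of a type and less RNA per cell cannot be told apart. Cdh5, the adhesion protein of endothelial junctions, was at 25.9, 23.8 and 28.5 FPKM in the estrus libraries, against 38.8, 53.2, 81.7 and 93.0 FPKM in the diestrus libraries (log2 -1.25, limma adjusted p = 0.0177). The counts rested on single libraries: 15 markers fell without diestrus replicate 1, 4 without estrus replicate 1 and none without estrus replicate 2 in limma; Cdh5 had an adjusted p of 0.0531 without estrus replicate 1 and 0.0770 without estrus replicate 2. Of 6 tested lymphatic endothelium markers, 4 fell and none rose (all tested genes: 14.0% lower, 17.2% higher), with a median of -1.01, and Prox1, the defining transcription factor, had a log2 fold change of -0.67 (adjusted p = 0.0767).

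Set against the mean log2 FPKM of the 17 blood endothelium markers in the same library, Ramp2 stood at 2.69, 2.77 and 2.74 in estrus replicates 1 to 3, against 1.37, 1.28, 1.44 and 1.52 in diestrus replicates 1 to 4. This was the narrowest spread of the 8 ratios, diestrus replicate 1 lay with its group, and the difference was 1.33 (exact permutation p = 0.0286, adjusted 0.0914). Ramp2 itself had a log2 fold change of 0.33 (limma adjusted p = 0.336), and the 17 markers had a median of -0.97. The higher ratio at estrus therefore does not show that Ramp2 rose. Calcrl relative to the same markers was at -0.76, -0.22 and -0.26 in the estrus libraries, against -0.45, -1.18, -1.11 and -1.33 in the diestrus libraries, a difference of 0.60 with overlapping groups (exact p = 0.0857, adjusted 0.114). Ramp3 relative to the markers was at 3.70, 3.67 and 3.17 in the estrus libraries, against 2.40, -0.31, -0.55 and -1.32 in the diestrus libraries (difference 3.46, exact p = 0.0571, adjusted 0.0914).

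Markers of other cell types moved between the groups as well. Of 12 epithelium markers, 8 rose and none fell (median 1.35), of 11 stroma markers 5 fell and none rose (median -0.72), of 10 smooth muscle and pericyte markers 1 rose and 2 fell (median -0.33), and of 8 tested immune markers 5 fell and none rose (median -1.12). These counts stand beside 17.2% of all tested genes higher and 14.0% lower at estrus, with a median of 0.048. Whether or not they passed, 10 epithelium markers had positive and 2 negative log2 fold changes. For stroma markers 3 were positive and 8 negative. The summed epithelial level was 3246 to 3816 FPKM in estrus libraries and 1009 to 1422 FPKM in diestrus libraries. The summed immune level was 120.2 to 193 FPKM and 223.5 to 555 FPKM, of which Lyz2 alone made up 70.7 to 142 and 167 to 419. The summed levels of stroma (3960 to 5223 FPKM at estrus, 3176 to 5909 at diestrus) and smooth muscle (2994 to 5321, 2702 to 6987) overlapped. When estrus replicate 2 was left out, the markers that rose were 7 of epithelium, and those that fell were 4 of stroma, 1 of smooth muscle, 1 of immune cells and none of lymphatic endothelium. Their part in the differences of Ramp1, Ramp3 and Adm was not tested.

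The genes whose log2(FPKM + 1) followed each tested member most closely over the 7 libraries, among 12387 named genes, are given as a description, since both groups enter the correlation. Ramp1 was followed by Gimap6, Pdp1 and Ldb1 (Pearson r 0.996 to 0.997), and Gimap6, a GTPase of immune and endothelial cells, was at 11.7, 8.83 and 11.6 FPKM in estrus replicates 1 to 3, against 16.2, 32.5, 38.0 and 46.8 FPKM in diestrus replicates 1 to 4. Ramp3 was followed by Ndufc1, Mrs2 and Ppcs (r 0.994 to 0.995), of which Ndufc1, a subunit of mitochondrial complex I, was at 62.8, 63.6 and 61.4 FPKM in the estrus libraries, against 49.2, 20.6, 22.0 and 19.7 FPKM in the diestrus libraries. In each of these, as in Ramp1 and Ramp3, diestrus replicate 1 was the diestrus library nearest to estrus. Adm was followed by Nrn1, Cpz and Tnfrsf1a (r 0.984 to 0.993), Calcrl by Nhej1, Rassf5 and Grtp1 (r 0.976 to 0.981) and Ramp2 by Elmo1, Serinc3 and Itgb5 (r 0.956 to 0.981). The closest genes to Calcrl and to Ramp2 did not pass the limma test, with adjusted p from 0.177 to 0.694.

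**Figure D5:**
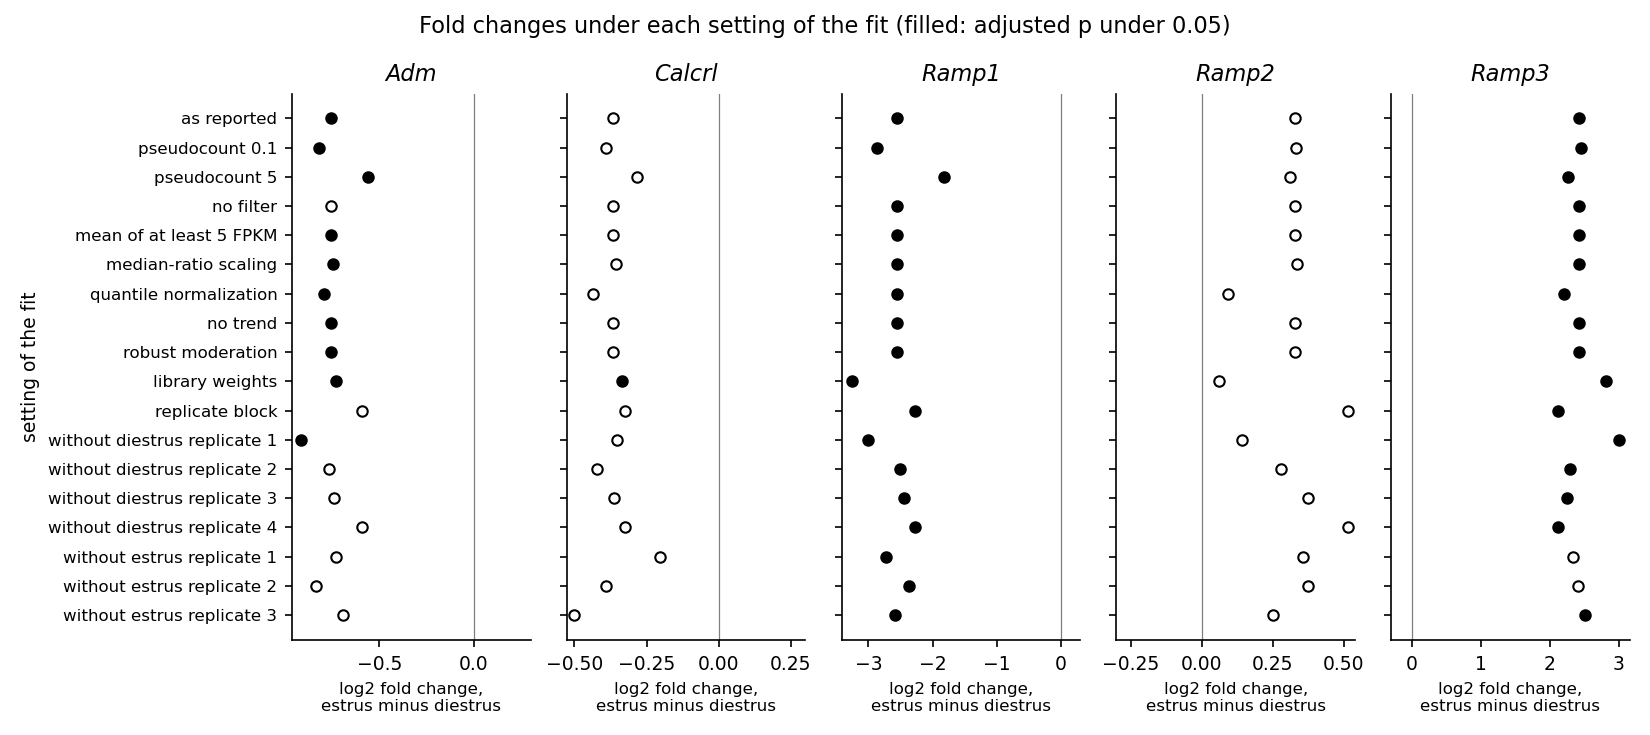
Log2 fold change, estrus minus diestrus, of the 5 tested genes as reported and under 17 alternative fits (rows); filled points have an adjusted p under 0.05. Ramp1 is filled in every row, Ramp3 is open without estrus replicate 1 or 2, and Adm is open with no filter, with the replicate block and without any library other than diestrus replicate 1.

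The size of the Ramp1 and Ramp3 changes was uncommon in the table: 2.33% of tested genes passed with a log2 fold change of at least 2 in either direction. The plot of fold changes under each setting shows that the sign of all 5 tested genes was the same in every alternative fit. With the fit that takes the replicate number as a block, Ramp1 and Ramp3 passed (log2 -2.27 and 2.12, adjusted p = 0.0328 each) and Adm did not (log2 -0.59, adjusted p = 0.0751).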

How the data were processed

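Per the labels' protocols, RNA was column-purified and DNase-treated, and an Illumina Tru-Seq kit was used. The deposited table holds FPKM computed by the authors, 1 column per library. The submitters' processing notes name TopHat2 2.0.4 and the build mm10 (GRCm38) without a role. For the program behind the FPKM, its annotation and its use of strand, nothing is given in the sources used here. Table columns were matched to samples by their descriptions, and 0 were left over. FPKM divides by mapped reads, so a few abundant transcripts can lower all other values.

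FPKM are not counts, so limma 3.58.1 in R 4.3.3 was run on log2(FPKM + 1) over the whole table, with a 2-group design, an intensity trend, two-sided p-values and Benjamini-Hochberg adjustment. The fit was tested on simulated data, drawn independently for each gene and library. That simulation held no library that stood apart as diestrus replicate 1 does, so it gives no support to the calls here. Ratios were compared by exact permutation in Python 3.11.15, with no pseudocount. For relative depth, values under 0.3 FPKM were divided by those of estrus replicate 1, and the commonest log2 ratio was taken in bins of 0.02. Gene positions and promoters are from RefSeq on GRCm38.p6 (6 of the 8 genes have a promoter there; not Calcb and Ramp2). Figures used matplotlib 3.10.9.

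The genes and lists were chosen with earlier results of these data known. Text names all 8 genes, list genes with an adjusted p under 0.05 or the smallest p-values, and the 3 closest genes by correlation; Calcr, Iapp, Crcp, Gnas, Vegfa, Prox1 and Snap25, and Epcam and Myh11, were named for what they are, after their values were seen. The alternatives changed the pseudocount (0.1 or 5), the filter (none, or a mean of 5 FPKM or more), the scaling (quantiles or median ratios), the moderation (robust, or with no trend) and the weights, added the replicate number as a block, or left out 1 library at a time.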

Additional observations from a re-analysis of the deposited data

Results flagged for a closer look

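Diestrus is the larger group, with 4 libraries, and in it a value is listed here when its gap to the nearest other library, divided by the range of the group, is above Dixon's 95% critical value; 8 of 153 genes and ratios met this, where chance gives about 1 in 20. Ramp3 was at 114 FPKM in diestrus replicate 1, against 17.05 to 25.0 in the other 3 (gap over range 0.918). The log2 ratio of Ramp1 to Ramp2 was -2.75 in diestrus replicate 1, against -1.64 to -1.52 in the others (0.902).

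Diestrus replicate 1 was also the library that stood apart for Gnb2, a G protein beta subunit, at 162 FPKM (0.885), the phosphodiesterase Pde3b at 8.92 FPKM (0.840) and the stromal marker Thy1 at 76.3 FPKM, the lowest of its group (0.876). Diestrus replicate 4 was highest for Pdpn at 20.1 FPKM (0.855) and for Dcn at 2245 FPKM (0.871), and diestrus replicate 2 for Egln3 at 5.40 FPKM (0.862).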

How the results depend on the processing

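No alternative reversed a sign. Ramp1 and Ramp2 stayed on the same side of the threshold in all 17 fits, and leaving out single libraries moved Ramp1 from -3.01 to -2.27, Ramp3 from 2.12 to 3.01, Adm from -0.92 to -0.59 and Calcrl from -0.50 to -0.20. Adm lost its call with no filter (-0.75, adjusted p = 0.0612), and Calcrl gained one with library weights (-0.34), whose estimate stopped short of convergence. Of the 8 genes, 0 to 1 rose and 1 to 2 fell without single libraries, and 1 fell with no filter. Over all genes 854 to 2866 rose and 579 to 2445 fell without single libraries, 4944 and 4423 with library weights, and 1181 fell with a mean of at least 5 FPKM. The split was 2393 higher and 1943 lower as reported but 1684 and 1914 with quantile normalization. The 8 ratios kept their signs in 10 alternatives each and passed in none that had a test (1 added, or medians).

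Replicate numbers are shared by the groups, and the deviations of libraries with the same number correlated at 0.198, 0.0243 and 0.169. Those of libraries with different numbers correlated at -0.326 to 0.267. So few libraries cannot show whether the numbers pair the samples. With the replicate block, in which diestrus replicate 4 has no partner and adds nothing to the contrast, 1299 genes rose and 982 fell, Adm was at -0.59 and 1 of the 8 genes fell, and 2 maturation genes rose, 1 related receptor gene fell, and 1 cyclic AMP gene rose and 4 fell.

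Without single libraries, maturation genes that rose numbered 1 to 4 and that fell 1 to 3, related receptors 0 to 1 and 0 to 2, cyclic AMP genes 2 to 6 and 2 to 8, HIF targets 8 to 13 and 0 to 2, and endothelium markers that fell 0 to 15. With quantile normalization 2 maturation and 3 cyclic AMP genes rose. With no filter, 1 maturation gene fell, 2 related receptors rose and 1 fell, and 4 cyclic AMP genes fell. With library weights, 4 maturation genes fell, 2 related receptors rose, 12 cyclic AMP genes rose and 14 fell, and 5 HIF targets fell. The cause of these shifts was not tested. Absolute depth is unknown, which limits Adm2, Calca and Calcb most.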
